A study of Mus musculus with 12 samples.

Results

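The genes described here are 50 DNA replication factors, chosen by name and not by their values: the origin recognition complex, the licensing factors, the MCM helicase and its activators, the sliding clamp and its loader, the replicative polymerases, the enzymes of Okazaki fragment maturation, replication protein A, chromatin assembly factor 1 and the fork protection proteins. All 50 were measured, out of 19937 genes in all, each on a probe set that names that gene alone. The mean over the 12 arrays of each of the 50 lay above the background of 5.21 log2, the 95th percentile of 1027 olfactory receptor genes. Total RNA of splenic lymphocytes of C57Bl/6 x FVB mice was hybridised to Affymetrix mouse gene arrays, with 3 arrays in each of 4 groups. By their labels the groups are activated B cells (4 days in culture with aCD40+IL4), resting B cells (day 0, mature and CD43 negative), activated T cells (4 days in culture with aCD3+aCD28+IL2) and resting T cells (day 0, mature and B220 negative). No further allele or agent is named for any group, and age is not given. Resting B cells were obtained with magnetic beads as what remained after other cell types were removed, so that a group is a bulk sample that can hold other cells. Whether the 3 arrays of one group stem from different animals is not stated, and p-values then reflect only the spread between these samples, which may be technical.

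DNA replication begins with licensing, in which the origin recognition complex, CDC6 and CDT1 load the ring of MCM proteins onto origins. The kinase CDC7 with its partner DBF4, CDC45 and the GINS complex then turn the ring into an active helicase, and polymerase alpha with primase, the clamp PCNA with its loader RFC, and polymerases delta and epsilon copy the strands. A lymphocyte at rest in the spleen is not in the cell cycle, many of these genes are known targets of E2F transcription factors, and activation of B or T cells is known to drive entry into S phase.

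Most genes that define the lineages went against the labels, so the groups are called by their labels throughout, and every direction below rests on labels that these genes contradict. Of 13 T cell markers, 13 were higher in labelled activated B than in labelled activated T arrays and 13 in labelled resting B than in labelled resting T arrays (limma). Of 13 B cell markers, 13 were lower in the first of these comparisons, while in the second 10 were lower, Cr2 was higher (1.31), and Bank1 (-0.64) and Fcrla (0.30) were not called. Cd3e, a part of the T cell receptor complex, had 9.92, 10.19 and 10.10 log2 on labelled activated B arrays, 10.82, 10.35 and 10.64 on labelled resting B arrays, 6.36, 6.19 and 6.74 on labelled activated T arrays and 5.60, 6.32 and 5.88 on labelled resting T arrays. Cd79a, a part of the B cell receptor complex, had 4.02, 5.0 and 4.49 log2 on labelled activated B arrays, 7.88, 8.85 and 8.09 on labelled resting B arrays, 11.79, 11.61 and 11.52 on labelled activated T arrays and 10.58, 10.64 and 10.13 on labelled resting T arrays. The 6 arrays labelled B were thus high in the T cell gene and the 6 arrays labelled T in the B cell gene, with no overlap. Array medians lay between 5.5 and 5.68 log2, and at most 0.069% of the values were equal between any 2 arrays. With these labels, activated cells had more replication transcripts than resting cells in the labelled B groups and fewer in the labelled T groups. Mki67, a marker of cycling cells, had 10.24, 10.22 and 10.09 log2 on labelled resting T arrays, against 5.80, 6.27 and 6.88 on labelled activated T arrays. Activation is known to drive entry into S phase, so the state labels of the T arrays are contradicted as well. The lower values on labelled activated T arrays are therefore not to be read as an effect of T cell activation. What set the lineage genes and the genes of cycling cells against the labels was not tested.

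The promoters of 7 members are shown first, picked with their values known to span members that differed widely (Mcm5, Mcm6, Orc1, Cdc6), members that differed less (Pcna, Rpa3) and a member that was not called (Orc4). Each sequence is the RefSeq window from 250 bases before to 50 bases after the annotated start, on build GRCm38.p6, written 5′ to 3′ along the gene. Capitals mark E2F letters (TTTCGCGC, TTTGGCGC, TTCCCGCC or TTCGCGCC, overlapping matches joined) and CCAAT, each searched on both strands.
Mcm5, chr8:75109259-75109558, plus strand: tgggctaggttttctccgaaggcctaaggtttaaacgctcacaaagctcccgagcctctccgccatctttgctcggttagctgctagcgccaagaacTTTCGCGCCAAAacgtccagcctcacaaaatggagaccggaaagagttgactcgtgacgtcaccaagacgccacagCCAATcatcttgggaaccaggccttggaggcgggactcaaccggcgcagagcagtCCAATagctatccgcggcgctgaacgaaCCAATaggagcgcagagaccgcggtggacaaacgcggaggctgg
Mcm6, chr1:128359656-128359955, minus strand: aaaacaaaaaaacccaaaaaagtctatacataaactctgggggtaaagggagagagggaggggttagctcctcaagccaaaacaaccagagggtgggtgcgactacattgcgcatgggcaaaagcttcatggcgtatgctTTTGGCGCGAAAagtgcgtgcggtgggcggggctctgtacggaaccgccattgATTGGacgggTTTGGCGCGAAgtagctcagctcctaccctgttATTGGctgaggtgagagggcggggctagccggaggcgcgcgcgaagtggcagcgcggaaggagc
Orc1, chr4:108579204-108579503, plus strand: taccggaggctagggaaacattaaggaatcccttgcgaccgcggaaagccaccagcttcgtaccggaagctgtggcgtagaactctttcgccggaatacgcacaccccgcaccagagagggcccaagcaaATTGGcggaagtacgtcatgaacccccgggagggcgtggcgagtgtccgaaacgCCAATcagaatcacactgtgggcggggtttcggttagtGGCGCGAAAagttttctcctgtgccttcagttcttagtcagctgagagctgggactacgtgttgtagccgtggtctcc
Cdc6, chr11:98907901-98908200, plus strand: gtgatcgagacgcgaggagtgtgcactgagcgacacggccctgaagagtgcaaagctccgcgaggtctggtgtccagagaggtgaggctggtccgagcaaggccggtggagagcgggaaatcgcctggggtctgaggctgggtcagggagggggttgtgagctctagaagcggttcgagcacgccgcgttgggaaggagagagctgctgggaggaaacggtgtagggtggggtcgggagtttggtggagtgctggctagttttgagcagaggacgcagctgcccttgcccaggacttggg
Pcna, chr2:132253131-132253430, minus strand: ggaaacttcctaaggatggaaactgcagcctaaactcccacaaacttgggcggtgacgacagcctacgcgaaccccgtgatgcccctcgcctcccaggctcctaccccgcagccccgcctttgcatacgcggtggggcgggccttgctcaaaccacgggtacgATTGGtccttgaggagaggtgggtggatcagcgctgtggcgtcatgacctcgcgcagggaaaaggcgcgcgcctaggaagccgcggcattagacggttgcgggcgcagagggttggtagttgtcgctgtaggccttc
Rpa3, chr6:8259092-8259391, minus strand: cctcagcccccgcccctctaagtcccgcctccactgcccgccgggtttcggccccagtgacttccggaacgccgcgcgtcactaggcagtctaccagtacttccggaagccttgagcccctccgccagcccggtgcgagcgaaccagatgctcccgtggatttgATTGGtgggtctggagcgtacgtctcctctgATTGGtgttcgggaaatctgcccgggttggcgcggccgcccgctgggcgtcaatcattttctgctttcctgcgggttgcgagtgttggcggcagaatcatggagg
Orc4, chr2:48950032-48950331, minus strand, the first of 3 windows: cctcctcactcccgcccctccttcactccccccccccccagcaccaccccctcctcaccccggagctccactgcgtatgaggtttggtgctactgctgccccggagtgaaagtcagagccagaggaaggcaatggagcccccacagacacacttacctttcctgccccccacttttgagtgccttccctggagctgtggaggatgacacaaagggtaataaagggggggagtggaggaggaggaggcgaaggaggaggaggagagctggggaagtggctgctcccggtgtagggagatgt
The Mcm6 window held 2 separate runs of E2F letters and 2 of CCAAT, the Mcm5 window 1 and 3, and the Orc1 window 1 and 2. Those of Pcna and Rpa3 held no E2F letters but 1 and 2 of CCAAT, and those of Cdc6 and Orc4 held neither, although another listed window of Orc4 holds TTCCCGCC. A match to these letters is a description of the sequence and does not show binding, and no match says only that these letters are not in the window.

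E2F letters stood in the windows of more members than of genes at large. The promoter table held 41 of the 50 members, and Tipin, Rfc2, Gins2, Pole, Gmnn, Gins1, Mcm4, Prim2 and Gins4 had no entry. For the 7 members with several windows the first listed was taken. E2F letters were found in 16 of the 41 members (39.0%), against 4.68% of the 15613 measured genes with a window and 3.4% of all 27025 genes of the table. The 16 are Orc1, Cdt1, Mcm3, Mcm5, Mcm6, Mcm7, Mcm8, Rfc3, Rfc4, Pola1, Prim1, Pold1, Pold3, Pole2, Chaf1a and Clspn, and 14 of them had such letters within 100 bases before to 50 bases after the start. If any listed window counts, the share was 48.8% of members, against 5.28% of measured genes. CCAAT was found in 23 of the 41 (56.1%), against 38.2% of measured genes, and TTTGAA, the letters of the cell cycle homology region, in 6 (14.6%), against 15.2%. The median GC content of the windows was 62.3% in members and 57.7% in measured genes, and GC content was not adjusted for in these shares.

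**Figure D1:**
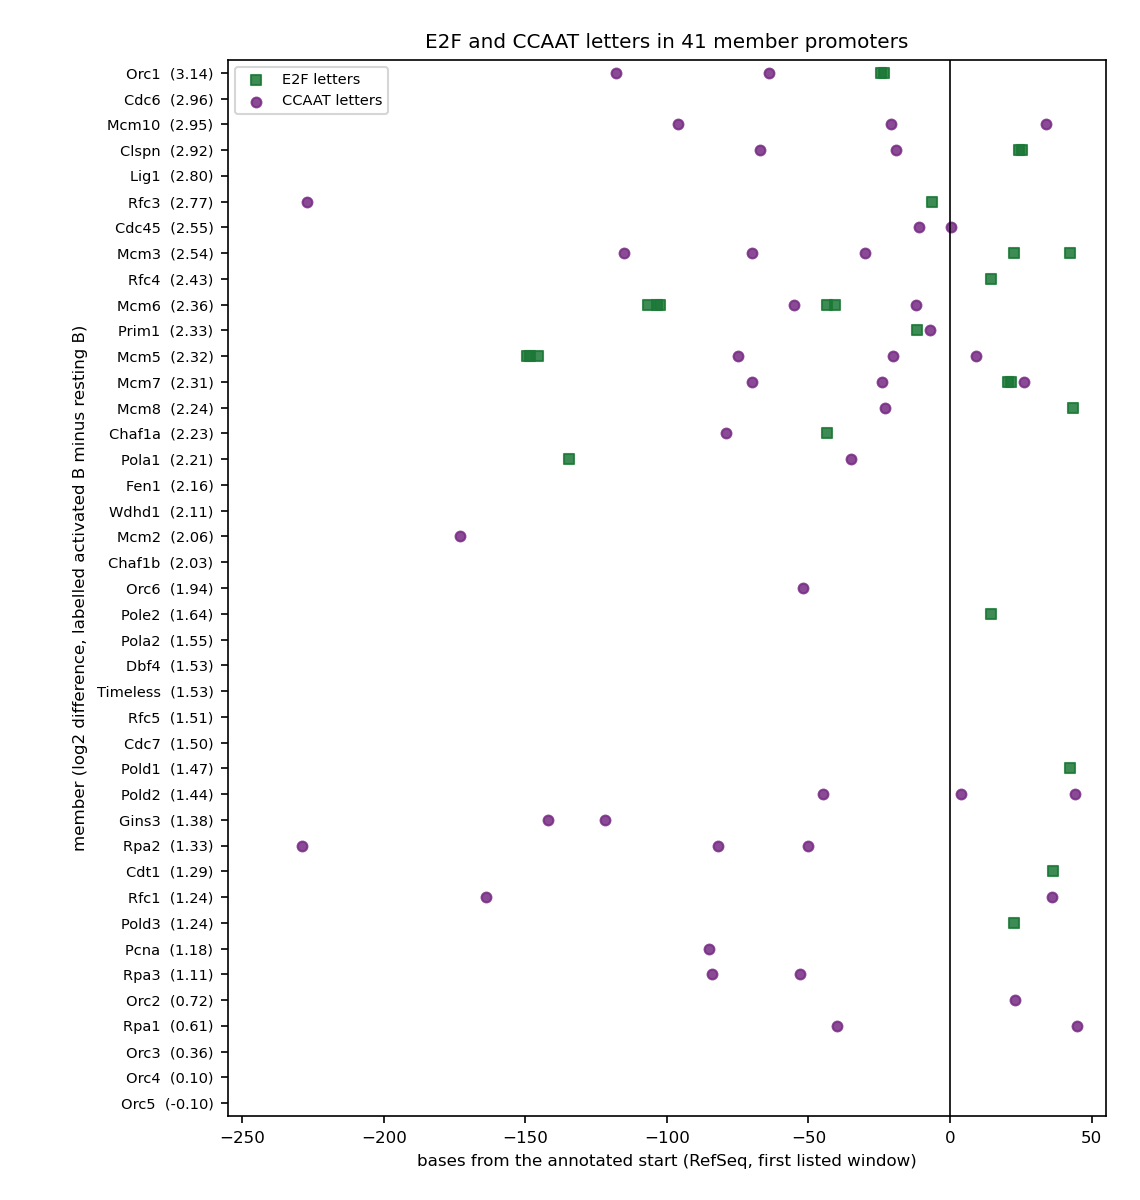
Position of E2F letters (squares) and CCAAT (circles), in bases from the annotated start, in the first listed RefSeq window of 41 members, which are ordered from top to bottom by their log2 difference between arrays labelled activated B and resting B (in brackets). E2F letters stand in 16 of the 41 windows, in 14 of them within 100 bases before to 50 bases after the start.

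As a group, the replication factors were higher in labelled activated than in labelled resting B arrays. The median over the 50 members was 8.77, 8.73 and 8.71 log2 on the 3 labelled activated B arrays, against 6.71, 7.02 and 7.13 on labelled resting B arrays. Of the 50 members, 48 rose (limma, adjusted p under 0.05) and none fell, while 19.7% of all genes rose and 16.7% fell. The members' median difference was 1.86 log2, beside -0.02 over all genes, and 44 members rose at least 2-fold, which 5.48% of all genes did. The largest differences were 3.15 in Gins1, 3.14 in Orc1, 2.98 in Pole and 2.96 in Cdc6. Orc4 (0.10 ± 0.09, SE) and Orc5 (-0.10 ± 0.09) were not called. In 49 members, all but Orc5, the 3 arrays labelled activated B lay above the 3 labelled resting B, which 23.9% of all genes showed. With median centring of the arrays, the share of higher among all genes called was 66.6%, beside 54.1% as deposited.

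In the labelled T arrays the same comparison ran the other way. The members' median was 6.97, 6.84 and 6.98 log2 on the 3 labelled activated T arrays, against 8.32, 8.53 and 8.45 on labelled resting T arrays. Of the 50 members, 46 fell (limma, adjusted p under 0.05) and none rose, while 17.8% of all genes fell and 15.9% rose. The median difference was -1.69 log2, beside 0.02 over all genes, and 36 members fell at least 2-fold, which 4.62% of all genes did. Pole2 fell by 4.16 log2, Mcm6 and Pole by 2.82, and Cdc6 fell by 2.69. Orc4 (-0.02 ± 0.09), Orc5 (0.02 ± 0.09), Cdt1 (-0.09 ± 0.10) and Rfc1 (-0.21 ± 0.11) were not called. In these 4 the arrays of the 2 groups overlapped, and in the other 46 all arrays labelled activated T lay below all arrays labelled resting T, which 21.1% of all genes showed. With median centring the share of higher among all genes called was 33.9%, beside 47.3% as deposited.

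**Figure D2:**
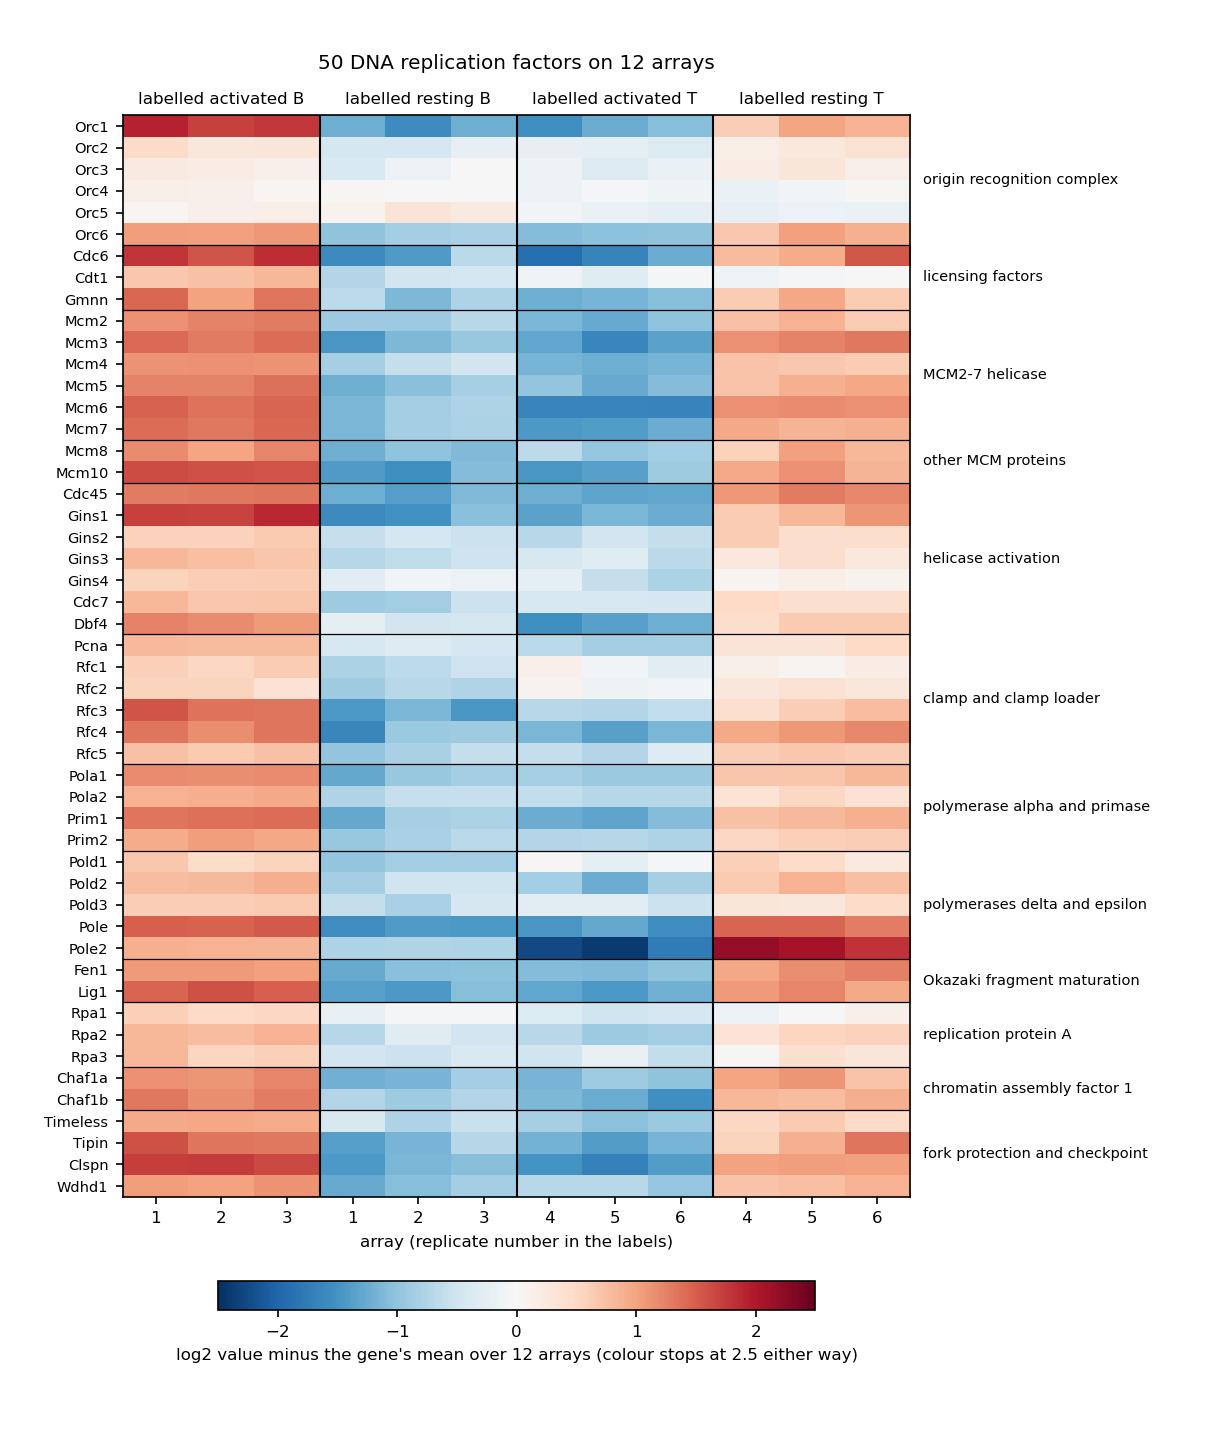
Log2 value of each of the 50 members (rows, by complex) on each of the 12 arrays (columns, by label), minus the gene's mean over the 12 arrays. Red is above and blue below that mean; labelled activated B and resting T arrays are red and those labelled resting B and activated T are blue in most rows, while Orc4 and Orc5 stay pale throughout.

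The difference between the labelled cell types was tested directly as the difference of the 2 differences. It was called higher in the labelled B groups for 48 members and lower for none (limma), beside 21.9% and 20.9% of all genes, with a median of 3.75 log2 in the members and -0.03 over all genes. Orc4 (0.12 ± 0.12) and Orc5 (-0.12 ± 0.13) were the exceptions. With median centring the share of higher among all genes called was 67.6%, beside 51.2% as deposited. There were 46 members that rose in the labelled B and fell in the labelled T comparison, as did 12.9% of all genes. In 45 members all 6 arrays labelled activated B or resting T lay above all 6 labelled resting B or activated T, which 12% of all genes showed, and the exceptions were Orc4, Orc5, Cdt1, Rfc1 and Rpa1.

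Between labels of the same state, the members were higher in labelled activated B than in labelled activated T arrays and lower in labelled resting B than in labelled resting T arrays. In labelled activated B minus activated T, 49 rose and none fell (limma), beside 21.8% and 18.9% of all genes, with a median of 2.08 log2 in the members and -0.03 over all genes. Orc4 was not called there (0.20 ± 0.09, adjusted p = 0.0771). With median centring the share of higher among all genes called was 68.5%, beside 53.5% as deposited. In labelled resting B minus resting T, 46 fell and 1 rose, beside 19.0% and 16.1% of all genes, with a median of -1.58 log2 in the members and -0.0034 over all genes. The 1 that rose was Orc5 (0.39 ± 0.09), and Orc4, Gins4 and Rpa1 were not called. These comparisons share arrays with the ones above and with each other, so that they are not independent of them.

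**Figure D3:**
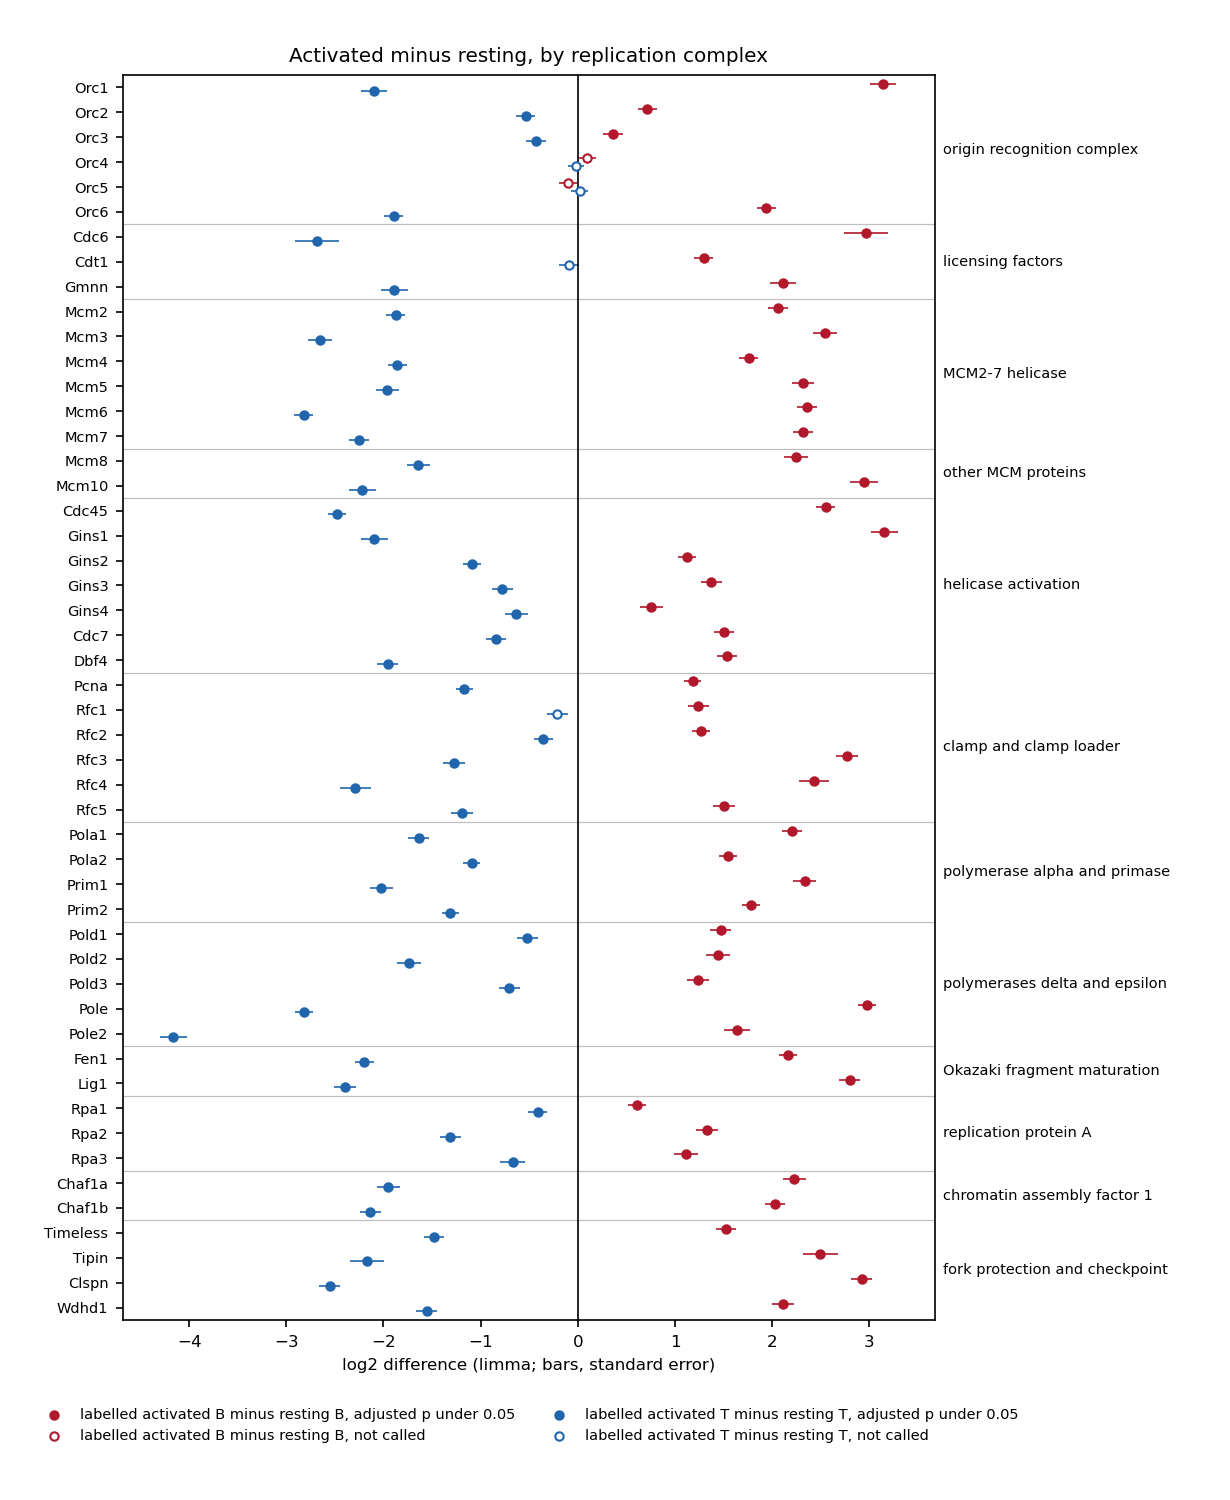
Log2 difference of each member by complex, labelled activated B minus labelled resting B (red) and labelled activated T minus labelled resting T (blue), with standard errors from limma over 12 arrays; filled points have an adjusted p under 0.05. Apart from Orc5, red points lie right of 0 and blue points left of 0, with a median of 1.86 and -1.69, and the open points are Orc4, Orc5, Cdt1 and Rfc1.

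The origin recognition complex, which marks origins and recruits the loading factors, split within itself. ORC1 is the subunit whose level is known to follow the cell cycle. Orc1 had 7.52, 7.30 and 7.37 log2 on labelled activated B arrays, against 4.38, 4.02 and 4.37 on labelled resting B arrays. It had 4.07, 4.35 and 4.53 on labelled activated T arrays, against 6.20, 6.57 and 6.46 on labelled resting T arrays. Its arrays did not overlap in either comparison, and the differences were 3.14 ± 0.13 (limma, adjusted p = 1.5e-11) and -2.10 ± 0.13 (adjusted p = 2.2e-09). The means of Orc1 on labelled resting B arrays (4.26 ± 0.20, SD, n = 3) and activated T (4.32 ± 0.23) lay below the background of 5.21, where values are compressed, so that its folds are understated. Orc6, the smallest subunit, differed by 1.94 and -1.90. Orc2 (0.72 and -0.54) and Orc3 (0.36 and -0.43) passed the test in both with smaller differences, and Orc3 lost its call in the labelled B comparison without resting B replicate 1 (adjusted p up to 0.0759 over the alternatives).

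Orc4 and Orc5, 2 ATPase subunits of the same complex, were not called in either comparison. Orc4 had 8.39, 8.36 and 8.27 log2 on labelled activated B arrays, 8.25, 8.24 and 8.23 on labelled resting B arrays, 8.10, 8.2 and 8.12 on labelled activated T arrays and 8.07, 8.16 and 8.26 on labelled resting T arrays. The labelled B groups did not overlap and the labelled T groups did. Orc5 had 7.83, 7.92 and 7.96 log2 on labelled activated B arrays, 7.88, 8.11 and 8.02 on labelled resting B arrays, 7.73, 7.62 and 7.57 on labelled activated T arrays and 7.58, 7.65 and 7.62 on labelled resting T arrays. Every array labelled B was above every array labelled T in Orc5, and it was the member with its highest mean in the labelled resting B and its lowest in the labelled resting T arrays. Its difference was 0.27 ± 0.09 in labelled activated B minus activated T (adjusted p = 0.0246) and 0.39 ± 0.09 in labelled resting B minus resting T (adjusted p = 0.00229). The first of these calls was lost in 4 of the fits that left out 1 array and with quantile normalization (adjusted p up to 0.172).

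Of the licensing factors, which load the MCM ring, Cdc6 and Gmnn passed the test in both comparisons and Cdt1 in that of the labelled B groups. Cdc6 had 8.64, 8.43 and 8.70 log2 on labelled activated B arrays, against 5.26, 5.45 and 6.18 on labelled resting B arrays, and 4.97, 5.19 and 5.62 on labelled activated T arrays, against 7.65, 7.78 and 8.42 on labelled resting T arrays. The groups did not overlap, but the arrays within a group were spread widely, with the highest SD of any member on labelled resting B arrays (0.48, n = 3) and resting T (0.41). The differences of Cdc6 were 2.96 ± 0.23 and -2.69 ± 0.23. Gmnn, which encodes geminin, the inhibitor of CDT1, differed by 2.11 ± 0.14 and -1.89 ± 0.14.

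Cdt1, the partner of CDC6 in MCM loading, had 8.88, 8.93 and 9.04 log2 on labelled activated B arrays, against 7.48, 7.72 and 7.76 on labelled resting B arrays. In the labelled T groups it had 8.12, 7.91 and 8.17 in the activated arrays, against 8.10, 8.17 and 8.19 in the resting arrays. The first pair of groups stood apart and the second overlapped. Cdt1 rose by 1.29 ± 0.10 in the labelled B comparison (limma, adjusted p = 2.3e-08) and differed by -0.09 ± 0.10 in the labelled T comparison (adjusted p = 0.581), and the difference between the labelled cell types was 1.38 ± 0.14 (adjusted p = 4e-07).

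The 6 subunits of the MCM2-7 helicase, which unwinds the DNA at the fork, all passed the test in both comparisons. In labelled activated B minus resting B all 6 rose, by 1.76 (Mcm4) to 2.54 (Mcm3), beside 19.7% of all genes. In labelled activated T minus resting T all 6 fell, by 1.86 (Mcm4) to 2.82 (Mcm6), beside 17.8% of all genes. Mcm3 had 10.24, 10.12 and 10.22 log2 on labelled activated B arrays, against 7.38, 7.70 and 7.88 on labelled resting B arrays, and 7.53, 7.20 and 7.5 on labelled activated T arrays, against 9.97, 10.08 and 10.14 on labelled resting T arrays. Mcm6 had 10.85, 10.74 and 10.84 on labelled activated B arrays, against 8.23, 8.5 and 8.62 on labelled resting B arrays, and 7.73, 7.73 and 7.71 on labelled activated T arrays, against 10.53, 10.57 and 10.53 on labelled resting T arrays. No arrays overlapped for either gene in these comparisons. In labelled activated T minus resting B, Mcm6 fell by 0.73 ± 0.10 (limma, adjusted p = 2.7e-05), while Mcm3 differed by -0.24 ± 0.12 (adjusted p = 0.218); the 2 genes were not tested against each other. Mcm4 (-0.56) and Mcm7 (-0.43) were also lower in that comparison, and Mcm2 (-0.30) and Mcm5 (-0.08) were not called.

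Mcm8 and Mcm10 are not part of this ring. MCM8 is known from recombination repair and MCM10 from the start of unwinding. Mcm10 had 8.48, 8.45 and 8.42 log2 on labelled activated B arrays, against 5.42, 5.32 and 5.77 on labelled resting B arrays, and 5.39, 5.48 and 5.96 on labelled activated T arrays, against 7.80, 7.98 and 7.70 on labelled resting T arrays. It differed by 2.95 ± 0.14 and -2.22 ± 0.14, and Mcm8 by 2.24 ± 0.12 and -1.64 ± 0.12, with no overlap in any of the 4.

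The genes of helicase activation all passed the test in both comparisons but over a wide range of sizes. Beside them, 19.7% of all genes rose in the labelled B and 17.8% fell in the labelled T comparison. Gins1, a subunit of the GINS complex, had 8.11, 8.09 and 8.28 log2 on labelled activated B arrays, against 4.80, 4.87 and 5.34 on labelled resting B arrays. It had 5.06, 5.25 and 5.16 on labelled activated T arrays, against 7.02, 7.23 and 7.5 on labelled resting T arrays. The groups stood apart, and the means of labelled resting B and activated T arrays lay below the background, so that the differences of 3.15 ± 0.14 and -2.09 ± 0.14 are understated. The other GINS subunits differed less, with 1.13 and -1.09 for Gins2, 1.38 and -0.78 for Gins3 and 0.76 and -0.63 for Gins4. Cdc45, which joins GINS and MCM2-7 in the active helicase, differed by 2.55 ± 0.09 and -2.47 ± 0.09.

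Cdc7 and Dbf4, the kinase and its regulatory subunit, went opposite ways between the arrays labelled activated T and resting B. Dbf4 had 8.87, 8.82 and 8.71 log2 on labelled activated B arrays, 7.40, 7.19 and 7.20 on labelled resting B arrays, 6.11, 6.28 and 6.43 on labelled activated T arrays and 8.07, 8.30 and 8.30 on labelled resting T arrays. Cdc7 had 7.66, 7.51 and 7.52 on labelled activated B arrays, 5.93, 5.95 and 6.30 on labelled resting B arrays, 6.43, 6.43 and 6.40 on labelled activated T arrays and 7.33, 7.23 and 7.23 on labelled resting T arrays. For Dbf4 all arrays labelled activated T lay below all labelled resting B, and for Cdc7 they lay above. In labelled activated T minus resting B, Dbf4 fell by 0.99 ± 0.11 (limma, adjusted p = 2.1e-06) and Cdc7 rose by 0.36 ± 0.10 (adjusted p = 0.0184), although the call of Cdc7 was lost in 4 of the fits that left out 1 array (adjusted p up to 0.0916).

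Pcna encodes the sliding clamp that holds the polymerases on DNA, and Rfc1 to Rfc5 the loader that places it. Pcna had 11.41, 11.39 and 11.38 log2 on labelled activated B arrays, against 10.19, 10.28 and 10.16 on labelled resting B arrays, and 9.93, 9.75 and 9.73 on labelled activated T arrays, against 10.92, 10.91 and 11.08 on labelled resting T arrays. It differed by 1.18 ± 0.09 and -1.17 ± 0.09 with no overlap. The array carries 2 probe sets for Pcna, with means of 10.59 and 10.53 log2, and near-identical copies of the gene could share their signal, so that its level is uncertain.

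The loader subunits differed from each other. Rfc3 had 9.20, 9.0 and 8.99 log2 on labelled activated B arrays, against 6.20, 6.49 and 6.19 on labelled resting B arrays, and 6.95, 6.90 and 7.03 on labelled activated T arrays, against 8.05, 8.26 and 8.40 on labelled resting T arrays. Rfc1, the largest subunit, had 9.05, 8.97 and 9.09 on labelled activated B arrays, against 7.67, 7.80 and 7.92 on labelled resting B arrays, and 8.58, 8.38 and 8.16 on labelled activated T arrays, against 8.6, 8.52 and 8.64 on labelled resting T arrays. Rfc3 stood apart in both comparisons, with 2.77 ± 0.11 and -1.28 ± 0.11, while Rfc1 rose by 1.24 ± 0.11 in the labelled B comparison and overlapped in the labelled T comparison, with -0.21 ± 0.11 (limma, adjusted p = 0.159). The call of Rfc1 in the labelled T comparison was gained without activated T replicate 4 and with median centring (adjusted p down to 0.0386). Rfc2 differed by 1.27 and -0.36, Rfc4 by 2.43 and -2.29 and Rfc5 by 1.51 and -1.19, all called. Rfc1 (0.58), Rfc2 (0.74) and Rfc3 (0.67) were higher in labelled activated T than in labelled resting B arrays.

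**Figure D4:**
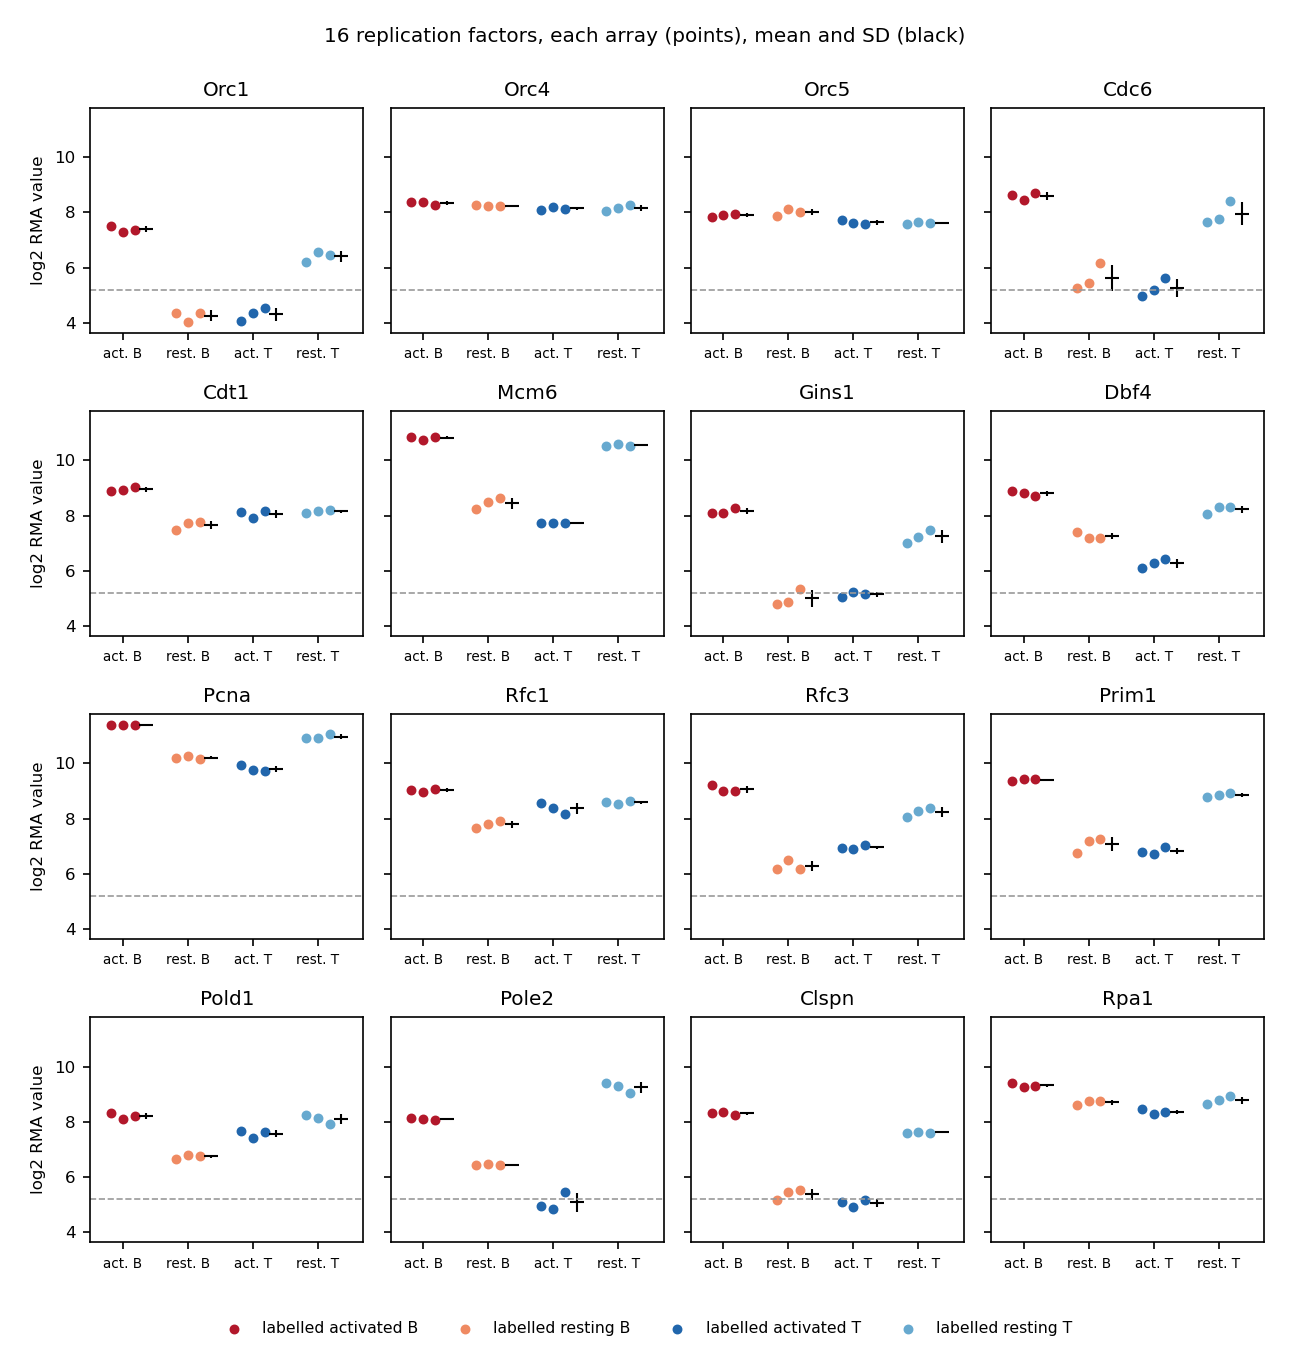
Log2 values of 16 members on each array (coloured points, 3 per label), with the mean and SD of each labelled group (black, n = 3) and the background of 5.21 log2 (dashed). Most members are high on labelled activated B arrays and resting T; Orc4 and Orc5 are not called in either comparison, Cdt1 and Rfc1 differ little between the arrays labelled activated T and resting T, and Pole2 spans the widest range, with 4.96, 4.84 and 5.47 on labelled activated T arrays and 9.41, 9.31 and 9.04 on labelled resting T arrays.

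Polymerase alpha and primase, which lay down the primers, all passed the test in both comparisons. Beside them, 19.7% of all genes rose in the labelled B and 17.8% fell in the labelled T comparison. Prim1, the catalytic subunit of primase, had 9.38, 9.43 and 9.44 log2 on labelled activated B arrays, against 6.78, 7.21 and 7.26 on labelled resting B arrays, and 6.80, 6.73 and 6.97 on labelled activated T arrays, against 8.78, 8.85 and 8.94 on labelled resting T arrays. It differed by 2.33 ± 0.12 and -2.02 ± 0.12 with no overlap. Prim2 differed by 1.78 and -1.31, Pola1, the catalytic subunit of the polymerase, by 2.21 and -1.64, and Pola2 by 1.55 and -1.09.

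Among the subunits of polymerases delta and epsilon, Pole and Pole2 had different patterns. Pole, the catalytic subunit of polymerase epsilon, had 9.0, 9.0 and 9.05 log2 on labelled activated B arrays, against 5.95, 6.09 and 6.07 on labelled resting B arrays, and 6.06, 6.23 and 5.97 on labelled activated T arrays, against 8.97, 8.97 and 8.79 on labelled resting T arrays. Its differences of 2.98 ± 0.09 and -2.82 ± 0.09 were close in size. Pole2, an accessory subunit of the same enzyme, had 8.12, 8.09 and 8.07 on labelled activated B arrays, against 6.45, 6.46 and 6.45 on labelled resting B arrays, and 4.96, 4.84 and 5.47 on labelled activated T arrays, against 9.41, 9.31 and 9.04 on labelled resting T arrays. All 4 groups were separate for Pole2, with the arrays labelled resting T at the top and those labelled activated T at the bottom. It rose by 1.64 ± 0.14 in the labelled B comparison and fell by 4.16 ± 0.14 in the labelled T comparison (limma, adjusted p = 1.4e-12), an understated 17.9-fold, since the mean of the arrays labelled activated T (5.09 ± 0.34, SD, n = 3) was below the background. Pole2 was the member called lower in labelled activated B minus resting T (-1.16 ± 0.14, adjusted p = 5.1e-06).

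Pold1, the catalytic subunit of polymerase delta, had 8.33, 8.12 and 8.21 log2 on labelled activated B arrays, 6.67, 6.79 and 6.78 on labelled resting B arrays, 7.69, 7.43 and 7.62 on labelled activated T arrays and 8.26, 8.13 and 7.91 on labelled resting T arrays. The arrays labelled resting B were lowest and stood apart from those labelled activated T. Pold1 rose by 1.47 ± 0.11 in the labelled B comparison, fell by 0.52 ± 0.11 in the labelled T comparison, and was 0.83 ± 0.11 higher in labelled activated T than in labelled resting B arrays (limma, adjusted p = 1.6e-05). Pold2 and Pold3, its accessory subunits, differed by 1.44 and -1.74 and by 1.24 and -0.71.

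Fen1, which trims the flaps of Okazaki fragments, and Lig1, which seals them, both passed the test in either comparison. Of all genes, 19.7% rose in the labelled B and 17.8% fell in the labelled T comparison. Lig1 had 9.57, 9.70 and 9.61 log2 on labelled activated B arrays, against 6.75, 6.68 and 7.06 on labelled resting B arrays, and 6.81, 6.68 and 6.91 on labelled activated T arrays, against 9.18, 9.34 and 9.06 on labelled resting T arrays. It differed by 2.80 ± 0.11 and -2.40 ± 0.11, and Fen1 by 2.16 ± 0.10 and -2.20 ± 0.10, with no overlap.

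Replication protein A, which coats single-stranded DNA in replication and in repair, differed less than most groups, with a median of 1.11 and -0.67 log2 over its 3 subunits. Rpa2 had 9.40, 9.33 and 9.44 log2 on labelled activated B arrays, against 7.85, 8.25 and 8.08 on labelled resting B arrays, and 7.87, 7.64 and 7.70 on labelled activated T arrays, against 8.91, 9.10 and 9.14 on labelled resting T arrays. It differed by 1.33 ± 0.11 and -1.31 ± 0.11. Rpa1, the largest subunit, had 9.39, 9.27 and 9.31 on labelled activated B arrays, against 8.61, 8.75 and 8.76 on labelled resting B arrays, and 8.45, 8.30 and 8.37 on labelled activated T arrays, against 8.66, 8.78 and 8.92 on labelled resting T arrays. Its arrays stood apart within each comparison, but those labelled resting B and resting T overlapped, and its differences were 0.61 ± 0.09 and -0.41 ± 0.09. Rpa3 differed by 1.11 ± 0.13 and -0.67 ± 0.13 on the brighter of its 2 probe sets, whose means were 7.01 and 6.13 log2.

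Chromatin assembly factor 1, which places new histones behind the fork, and the fork protection proteins passed the test in both comparisons. Of all genes, 19.7% rose in the labelled B and 17.8% fell in the labelled T comparison. Chaf1a had 8.12, 8.08 and 8.2 log2 on labelled activated B arrays, against 5.78, 5.81 and 6.13 on labelled resting B arrays, and 5.81, 6.09 and 5.96 on labelled activated T arrays, against 7.96, 8.07 and 7.69 on labelled resting T arrays. It differed by 2.23 ± 0.12 and -1.95 ± 0.12, and Chaf1b by 2.03 ± 0.11 and -2.14 ± 0.11. Clspn, which encodes claspin, a mediator between stalled forks and the checkpoint kinase CHK1, had 8.32, 8.34 and 8.25 on labelled activated B arrays, against 5.16, 5.46 and 5.53 on labelled resting B arrays, and 5.09, 4.91 and 5.19 on labelled activated T arrays, against 7.61, 7.64 and 7.61 on labelled resting T arrays. No arrays overlapped, and Clspn differed by 2.92 ± 0.11 and -2.56 ± 0.11. Timeless and Tipin, which form a complex at the fork, differed by 1.53 and -1.48 and by 2.49 and -2.17, and Wdhd1, which links the helicase to polymerase alpha, by 2.11 and -1.56.

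The sizes of the opposite differences were compared by the sum of the 2 differences, which is 0 where a rise in the labelled B groups equals the fall in the labelled T groups. This test was chosen after the values were seen. The sum is also that of the 2 comparisons across the labels given below, so that it is not independent of them. The sum was above 0 for 16 members and below 0 for 2 (limma, adjusted p under 0.05), beside 8.02% and 6.65% of all genes, with a median of 0.25 log2 in the members and 0.01 over all genes. It was largest in Rfc3 (1.49 ± 0.16), Cdt1 (1.21 ± 0.14), Gins1 (1.06 ± 0.20), Orc1 (1.04 ± 0.19), Rfc1 (1.03 ± 0.15), Pold1 (0.95 ± 0.15) and Rfc2 (0.91 ± 0.14). Pole2 (-2.53 ± 0.19) and Mcm6 (-0.46 ± 0.14, adjusted p = 0.0335) were below 0. None of the 6 MCM2-7 subunits was called above 0, with values of -0.46 to 0.36. Of the 4 genes of polymerase alpha and primase 3 were called, with values of 0.45 to 0.57, and Prim1 (0.31) was not; the 2 complexes were not tested against each other. For the 32 members that were not called, equal size was not shown.

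Across the labels, labelled activated B and resting T arrays differed less than above, and so did those labelled activated T and resting B. In labelled activated B minus resting T, 28 members rose and 1 fell (limma), beside 13.0% and 9.93% of all genes, with a median of 0.41 log2 in the members and -0.01 over all genes. No member rose at least 2-fold, which 2.85% of all genes did, and the largest differences were 0.99 in Orc1, 0.91 in Gins1, 0.82 in Rfc3 and 0.79 in Cdt1. All 4 genes of polymerase alpha and primase and all 3 of replication protein A rose, by 0.40 to 0.56 and 0.34 to 0.53. For Rpa3 this holds for the brighter of its 2 probe sets. The other had close means, 6.47 log2 on labelled activated B and 6.38 on labelled resting T arrays. The highest mean of a member was on labelled activated B arrays for 46 members, on labelled resting T arrays for Orc3, Pole2 and Fen1, and on labelled resting B arrays for Orc5. Of these calls those of Cdc7, Rpa2, Orc5, Rpa3, Gmnn and Mcm5 were lost without 1 array or another, and that of Pcna with the mean of its probe sets (adjusted p = 0.316).

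In labelled activated T minus resting B, 6 members rose and 12 fell (limma), beside 8.82% and 9.68% of all genes, and the median was -0.06 log2, beside 0.01 over all genes. Without resting B replicate 3 the members' median was 0.02. Those that rose were Pold1 (0.83), Rfc2 (0.74), Rfc3 (0.67), Rfc1 (0.58), Cdt1 (0.41) and Cdc7 (0.36). Those that fell were Pole2 (-1.36), Dbf4 (-0.99), Mcm6 (-0.73), Mcm4 (-0.56), Chaf1b (-0.52), Mcm7 (-0.43), Pcna (-0.41), Gins4 (-0.37), Orc5 (-0.37), Timeless (-0.36), Rpa1 (-0.34) and Clspn (-0.32). Pole2 was the member that fell at least 2-fold, which 2.5% of all genes did. The share of members that rose was near that of all genes. The count that fell lay between 8 and 15 when 1 array was left out, and the calls of Cdc7, Clspn, Gins4, Rpa1 and Timeless were each lost without at least 1 array.

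**Figure D5:**
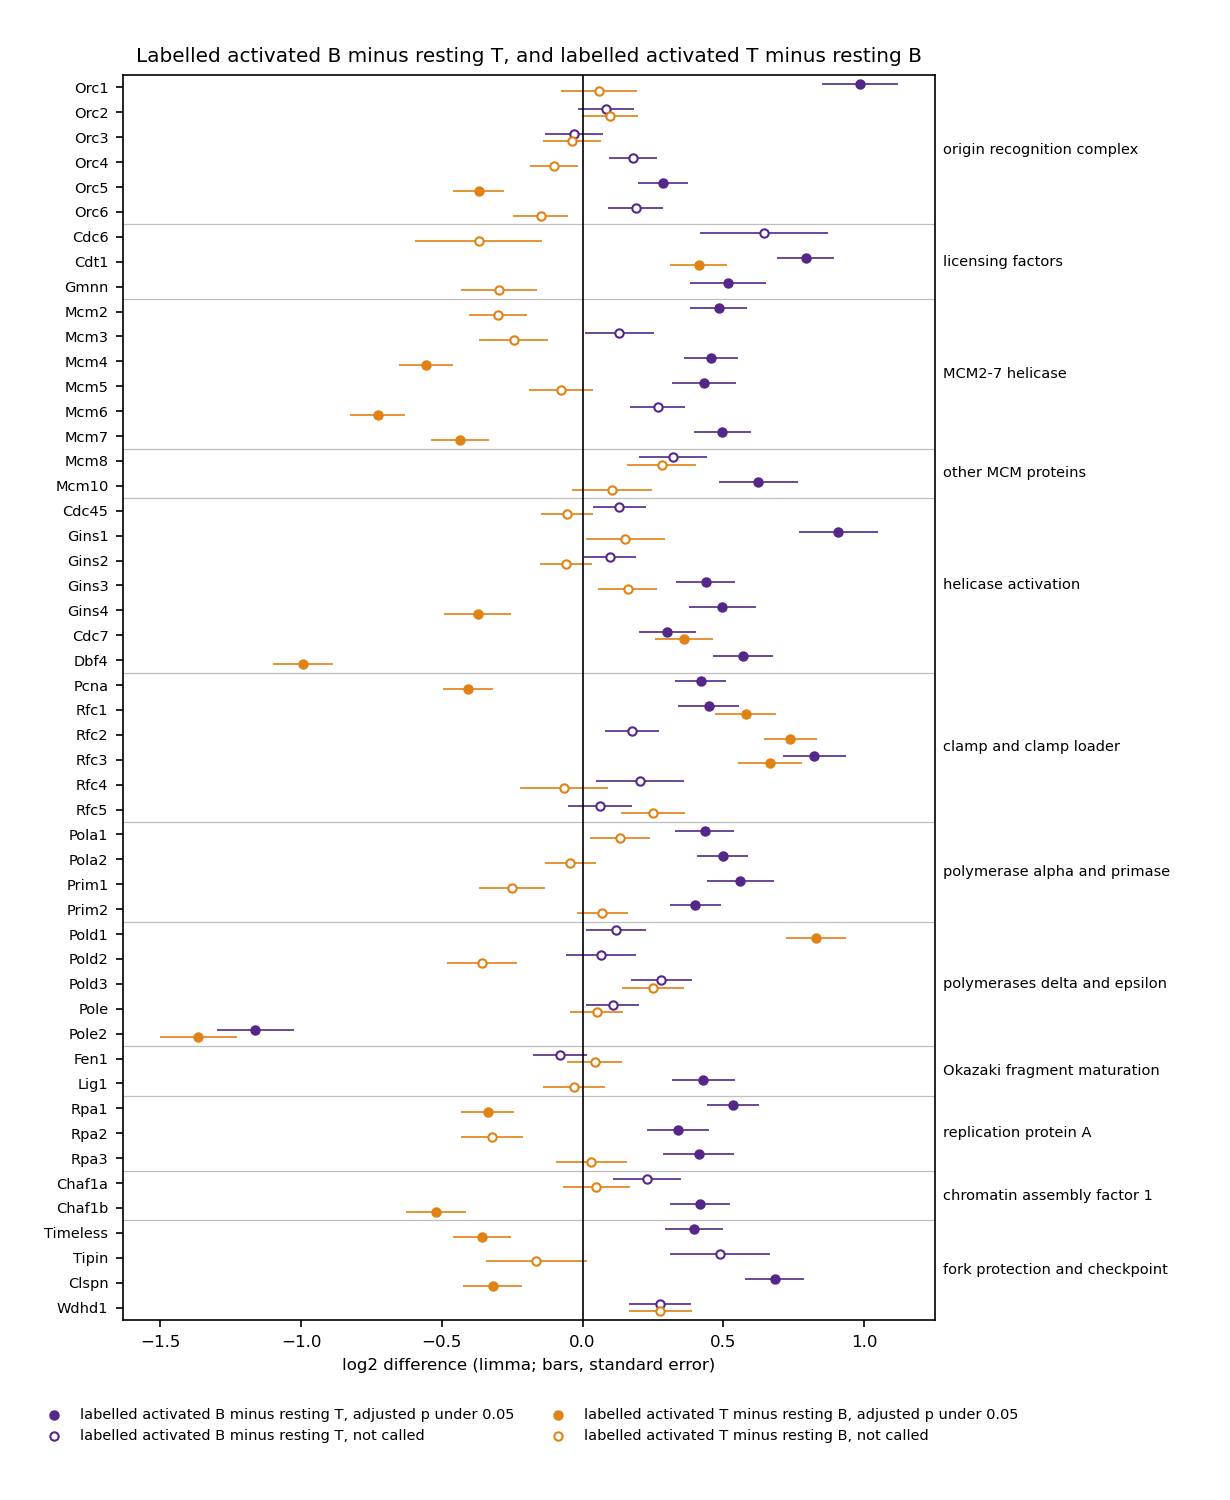
Log2 difference of each member by complex, labelled activated B minus labelled resting T (purple) and labelled activated T minus labelled resting B (orange), with standard errors from limma; filled points have an adjusted p under 0.05. Most purple points lie between 0 and 1, orange points lie on both sides of 0, and Pole2 lies far left in both, at -1.16 and -1.36.

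Members with E2F letters in their first listed window had larger differences than those without. The medians were 2.32 (16 members) and 1.51 (25 members) in labelled activated B minus resting B, and -1.99 and -1.31 in labelled activated T minus resting T. The split depends on this choice of window, since Orc4, Cdc7, Lig1 and Fen1, counted as without, hold E2F letters in another listed window. The 9 members without a window are left out. Over all measured genes the medians with and without these letters were 0.15 and -0.02 in the labelled B and -0.07 and 0.02 in the labelled T comparison. Members with CCAAT had medians of 2.23 and -1.88, those without 1.53 and -1.34, and over all measured genes the medians with and without CCAAT were 0.0004 and -0.02 in the labelled B comparison. For TTTGAA the order was the other way in the labelled B comparison, with 1.80 in the 6 members with and 1.94 in the 35 without these letters, and -1.92 and -1.64 in the labelled T comparison. These medians are descriptions and were not tested. Cdc6, with neither letters in its window, differed by 2.96 and -2.69, and Cdt1, with E2F letters, was not called in the labelled T comparison. Pole2 and Pole could not be compared in this respect, since Pole had no window.

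Genes of the replication machinery beyond the members moved the same way in part. Of 35 measured genes on a list of further replication factors, 23 rose and none fell in labelled activated B minus resting B, beside 19.7% and 16.7% of all genes, with a median of 0.79 log2. In labelled activated T minus resting T, 24 fell and 4 rose, beside 17.8% and 15.9% of all genes, with a median of -0.64. Ticrr and Mtbp, which start helicase activation, differed by 3.09 and -2.80 and by 1.76 and -1.19, Topbp1, which acts with them, by 1.68 and -1.17, and Recql4, a helicase, by 0.69 and -0.41. Top2a, the topoisomerase that separates sister chromatids (4.22 and -4.23), and Chek1, the checkpoint kinase (3.79 and -3.39), had the largest called differences of this list in both comparisons, followed by Ticrr in the labelled B comparison and by Asf1b, a histone chaperone, in the labelled T comparison (2.88 and -2.88). The 4 that rose in the labelled T comparison, named after their values were seen, were Donson (0.67), Rad9a (0.52), Pold4 (0.43) and Rad17 (0.34). Their share of the list was below the 15.9% of all genes.

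Of 11 measured polymerases and partners that work in repair or bypass DNA damage, 7 rose and 1 fell in the labelled B comparison, beside 19.7% and 16.7% of all genes, with a median of 0.49 log2. In the labelled T comparison 4 fell and 2 rose, beside 17.8% and 15.9% of all genes, with a median of -0.0021. Polq, which acts in end joining, differed by 2.26 and -2.14, Polh by 1.54 and -1.08 and Polk by 1.23 and -0.71, and both of the last named are bypass polymerases. Polb, the polymerase of base excision repair, differed by -0.01 (adjusted p = 0.957) and 0.09 (adjusted p = 0.608) and was not called, nor was Polm (0.25 and -0.0021). Poll rose by 0.49 in the labelled B comparison and was not called in the other (-0.22). The 1 that fell in the labelled B comparison was Rev3l (-0.27), and the 2 that rose in the labelled T comparison were Poli (0.48) and Primpol (0.45), all named after their values were seen.

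All 11 mitosis genes measured rose in the labelled B comparison, with a median of 3.85 log2, beside 19.7% of all genes and a median of -0.02. All 11 fell in the labelled T comparison, with a median of -3.54, beside 17.8% of all genes and a median of 0.02. Mki67, a marker of cycling cells, had 10.57, 10.59 and 10.57 log2 on labelled activated B arrays, against 6.17, 6.51 and 7.0 on labelled resting B arrays, and 5.80, 6.27 and 6.88 on labelled activated T arrays, against 10.24, 10.22 and 10.09 on labelled resting T arrays. Bub1, a spindle checkpoint kinase, differed by 5.03 and -4.91, Tpx2, a spindle assembly factor, by 4.43 and -4.07, and Kif11, a spindle motor, by 4.09 and -4.28. Of the cyclins, Ccna2 differed by 4.16 and -3.98 and Ccnb2 by 3.57 and -3.15, and Aurkb, a mitotic kinase, by 3.55 and -2.91. In a bulk sample, fewer dividing cells and less RNA of these genes per cell cannot be told apart.

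The members were spread more widely among the arrays labelled resting B than genes at large. The median SD of a member was 0.061 log2 on labelled activated B arrays, 0.179 on labelled resting B arrays, 0.122 on labelled activated T arrays and 0.106 on labelled resting T arrays, beside 0.101, 0.12, 0.112 and 0.128 over all genes. Among the arrays labelled resting B, replicate 1 was the lowest for 36 of the 50 members and replicate 3 the highest for 33. The median of the mitosis genes in these 3 arrays was 5.76, 6.04 and 6.23 log2. Without resting B replicate 1, 47 members still rose in the labelled B comparison.

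Markers of other cell types also moved in these comparisons. In labelled activated B minus resting B, 13 of 13 B cell markers, 8 of 11 myeloid, 6 of 6 dendritic cell, 3 of 3 natural killer cell, 1 of 7 erythroid, 4 of 8 plasma cell and 7 of 13 T cell markers fell, while 3 plasma cell markers and 1 T cell marker rose. Over all genes 16.7% fell and 19.7% rose, so that the erythroid count was near the share of all genes. The mean of the B cell list ranged over 4.75 to 5.10 log2 on labelled activated B arrays, with 7 of 13 at or below background, against 6.94 to 8.29 on labelled resting B arrays, and that of the myeloid list over 4.65 to 4.74, with 9 of 11 at or below background, against 6.35 to 6.87. In labelled activated T minus resting T, 11 of 13 B cell, 5 of 11 myeloid, 4 of 6 dendritic cell, 3 of 3 natural killer cell, 1 of 7 erythroid and 4 of 13 T cell markers rose, while 6 of 8 plasma cell markers, 1 T cell marker and 1 dendritic cell marker fell. Over all genes 15.9% rose and 17.8% fell. The erythroid count was again near the share of all genes, as was the count of dendritic cell markers that fell. All 3 natural killer cell markers lay at or below background on labelled resting T arrays and on labelled activated B arrays. Klre1 lay below background in every group, so that its calls rest on values under that level. The mean of the B cell list ranged over 11 to 11.18 on labelled activated T arrays, against 9.09 to 9.43 on labelled resting T arrays, and that of the myeloid list over 6.13 to 6.41, against 5.44 to 5.59. The part of these cells in the members' differences was not tested.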

How the data were processed

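RNA of the 12 arrays was measured as log2 values per probe set, which the authors deposited after RMA, per the submitters' processing notes (version not given in the sources used here). RMA gives all arrays a similar distribution and compresses low values, so that folds near background are understated. The deposited table held 34760 probe sets, of which 21640 named 1 gene, 1321 several and 11799 none; only the first were used. For 954 genes over 1 probe set, the brightest by mean was taken, which left 19937 genes. No column lacked a sample (0). The fit used limma (version 3.58.1, R version 4.3.3) over all 12 arrays and the 4 labelled groups (8 residual degrees of freedom), with p-values adjusted over all genes by Benjamini-Hochberg and a threshold of 0.05. The limma fit was tested on simulated data, for labelled activated B minus resting B only. Precision is limited by 3 arrays a group. All 50 members are named, with array values for the largest difference of each complex in the labelled B comparison and for members that go against it. Of other lists, the first 4 and the 3 largest called changes are named. The members and lists were chosen with earlier results of these data known. Same-numbered labelled T arrays deviated from their groups together to a small degree (correlations 0.22, 0.16 and 0.23). Between different numbers the correlations were -0.20 to 0.01. As the group mean was subtracted first, a positive correlation for the same number pulls those between different numbers down. The latter are thus not separate evidence. Whether the numbers pair the arrays was not tested, and the main fit did not use them. Alternatives were median and 75th percentile centring, quantile normalization, leaving out dim genes, averaging a gene's probe sets, array weights, an intensity trend with robust settings, only the arrays compared, a replicate block and leaving out each array. Python (3.11.15) with numpy (2.4.6), pandas (2.3.3) and matplotlib (3.10.9) served for tables and plots.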

Additional observations from a re-analysis of the deposited data

Results flagged for a closer look

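For 48 members the difference between activated and resting arrays was not the same in the labelled B and the labelled T groups. The test was limma's for the difference of differences (adjusted p under 0.05), which called 21.9% of all genes higher and 20.9% lower. Lineage genes contradict these labels, and genes of cycling cells contradict the state labels of the T arrays. The values below are log2, labelled B minus labelled T. In the origin recognition complex it was 5.24 for Orc1, 1.25 for Orc2, 0.78 for Orc3 and 3.83 for Orc6. In the licensing factors it was 5.65 for Cdc6, 1.38 for Cdt1 and 4.00 for Gmnn. In the MCM2-7 helicase it was 3.93 for Mcm2, 5.19 for Mcm3, 3.62 for Mcm4, 4.27 for Mcm5, 5.18 for Mcm6 and 4.57 for Mcm7. In the other MCM proteins it was 3.88 for Mcm8 and 5.16 for Mcm10. In helicase activation it was 5.02 for Cdc45, 5.25 for Gins1, 2.21 for Gins2, 2.15 for Gins3, 1.39 for Gins4, 2.34 for Cdc7 and 3.49 for Dbf4. In the clamp and its loader it was 2.35 for Pcna, 1.45 for Rfc1, 1.62 for Rfc2, 4.05 for Rfc3, 4.72 for Rfc4 and 2.70 for Rfc5. In polymerase alpha and primase it was 3.84 for Pola1, 2.64 for Pola2, 4.36 for Prim1 and 3.10 for Prim2. In polymerases delta and epsilon it was 1.99 for Pold1, 3.18 for Pold2, 1.94 for Pold3, 5.80 for Pole and 5.80 for Pole2. In Okazaki fragment maturation it was 4.36 for Fen1 and 5.19 for Lig1. In replication protein A it was 1.03 for Rpa1, 2.64 for Rpa2 and 1.79 for Rpa3. In chromatin assembly factor 1 it was 4.18 for Chaf1a and 4.17 for Chaf1b. In fork protection it was 3.01 for Timeless, 4.66 for Tipin, 5.47 for Clspn and 3.67 for Wdhd1. Orc4 and Orc5 did not pass this test. Groups of 3 arrays were not tested for single arrays that stand apart.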

How the results depend on the processing

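No difference of a member that was called changed direction under any alternative run. Differences near 0 that were not called did, among them those of Orc4 and Orc5, and the members' median in labelled activated T minus resting B was -0.06 as deposited and -0.10 to 0.02 with 1 array left out, above 0 without resting B replicate 3. The median difference over the members in labelled activated B minus activated T was 2.21 log2 with median centring and 1.93 with quantile normalization (2.08 as deposited), and that of the difference between labelled cell types 3.96 and 3.56 (3.75 as deposited). With quantile normalization 1 member, Orc5, was called lower in labelled activated B minus resting B and in the difference between labelled cell types. Median centring moved the median difference of all genes in labelled activated B minus activated T to 0.10 and in the difference between labelled cell types to 0.18. With 1 array left out, 47 to 48 members rose in labelled activated B minus resting B and 46 to 47 fell in labelled activated T minus resting T; 23 to 31 rose in labelled activated B minus resting T, 8 to 15 fell in labelled activated T minus resting B, and the sum of differences was called above 0 for 12 to 17. With the replicate block, 48 members rose in the labelled B and 46 fell in the labelled T comparison, so that neither of these counts changed. The correlations of same-numbered labelled B arrays were -0.06, 0.06 and 0.25. The other comparisons share no replicate numbers. Of single member results, the sum of differences left out, 2842 stayed as they were under other settings, called or not called. In these settings 46 gained and 12 lost a call. With 1 array left out, 4121 stayed as they were, 25 gained and 54 lost a call. Values near background limit what can be told of Orc1, Gmnn, Gins1, Pole2 and Clspn.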
